A study of Homo sapiens with 2 samples.

Results

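Readthrough genes are annotated genes whose transcripts start in one gene and end in the next gene on the same strand. They were taken here as the protein-coding genes of GENCODE release 44 whose symbol splits at a single hyphen into a pair of parts that are each a gene symbol in that release. Of 122 genes that met this rule, 117 had their Ensembl identifier in the deposited tables, out of 58735 genes in all. Each of the 117 has an upstream and a downstream parent, 232 different parent genes in all, and all parents were in the tables.

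The RNA came from MCF10a-Snail-ER, a derivative of the breast epithelial line MCF10A that carries the transcription factor Snail (SNAI1) fused to the estrogen receptor (ESR1), treated with 100 nM tamoxifen for 1 day to begin an epithelial-to-mesenchymal transition. Both libraries share this line, this construct and this treatment, and no untreated or parental library was analysed. One library was polyadenylated RNA read directly on an Oxford Nanopore MinION (403235 counts), and the other was a TruSeq stranded mRNA library read by Illumina sequencing (191741714 counts). With 1 library per platform there is no spread between replicates, so every interval below covers counting error only and no p-value is given. All 8 basal epithelial markers (KRT5, KRT14, KRT17 and TP63 among them) had counts in both libraries, and their levels summed to 3474 (Nanopore) and 3874 (Illumina) counts per 1000000 (CPM). All 5 luminal epithelial markers also had counts in both, with sums of 687 and 560 CPM, most of it from KRT8 and KRT18. Of the construct genes, SNAI1 was at 709 CPM by Nanopore and 860 by Illumina, and ESR1 at 965 and 143. Of 4 leukocyte markers, 1 had Nanopore counts, CD68, at 32.2 CPM by Nanopore and 45.1 by Illumina. PTPRC was at 0 and 2 counts and CD3E at 0 in both libraries. Of 4 fibroblast markers, 2 had Nanopore counts, with sums of 27.3 and 32.3 CPM, most of it from DCN. The 3 endothelial markers were at 0 by Nanopore and summed to 5.16 CPM by Illumina.

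As background, RNA polymerase II normally ends transcription after the nascent RNA is cleaved at a poly(A) signal. When that end is passed, polymerase can run into the next gene, and splicing can remove the end of the upstream gene and the start of the downstream gene from a single long RNA. Such conjoined RNAs can encode a fusion of both proteins, the upstream protein with a changed end, or a frame that stops early and marks the RNA for nonsense-mediated decay.

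In the annotation, 116 of the 117 readthrough genes lay on the chromosome and strand of both parents. The exception was BORCS7-ASMT on chromosome 10. Its second name part matches a gene on chromosome X, whereas 2326 of its exonic bases lay in exons of AS3MT, the gene that follows BORCS7. The median distance from the end of the upstream parent to the start of the downstream parent was 4686.5 bases over the 116 genes. It lay between 0 and 10 kb for 70 of them, 12 pairs of parents overlapped, and the longest gap was 573553 bases, in IQCJ-SCHIP1.

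The joining exons followed the known pattern of readthrough splicing in part. In 99 of the 117 canonical transcripts an exon of the upstream parent was joined directly to an exon of the downstream parent. The upstream exon was the next to last of its gene in 49 of the 99, and the downstream exon was the second in 73. Both held in 37. The joining introns had a median length of 16133 bases (246 to 176851), and 97 of the 99 began with GT and ended with AG. The canonical transcript was annotated as protein-coding for 80 genes and as a target of nonsense-mediated decay for 37. Counting a frame as shared from 15 coding bases upward, 50 readthrough reading frames kept the frame of both parents, 50 kept the upstream frame only and 7 the downstream frame only. The remaining 10 had no annotated start of the reading frame.

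The joins below are the sequences that would tell a readthrough RNA from its parents, since most other exonic bases of these genes also lie in a parent. They are given for the 9 readthrough genes among the 10 with the most Nanopore counts whose canonical transcript joins the parents directly within coding sequence. Each line holds 30 bases of hg38 in the direction of transcription, with the last 15 bases of the upstream exon in lower case and the first 15 bases of the downstream exon in capitals.
RPL17-C18orf32: gcccagaagaaaaagTTGAGGAGCTCAAGC
RPS10-NUDT3: accgaattccagtttGTGCTACTCGTGAGC
NME1-NME2: catacaagttggcagGACCATGGCCAACCT
SENP3-EIF4A1: ctgcaaactcactgtCCAGGGGAATCCTCC
HSPE1-MOB4: ggttctaaaggaaagGATTTCTATAATTGG
RPL36A-HNRNPH2: gataagaagagaaagCTACACCAAAATTGC
ATP5MF-PTCD1: gagcgtttcaaagagGCCCTGGAGGGACAG
NDUFC2-KCTD14: attttcctgaagaagGGGGTGACATTGGCC
RNASEK-C17orf49: cgcaaggaatacatgGTCGGAGAGATCTTC
Counts per gene do not say whether a read crossed such a join. In RPL17-C18orf32 the join links base 49489359 to base 49483771 of chromosome 18 on the minus strand across an intron of 5587 bases, and in NME1-NME2 it links base 51161272 to base 51166827 of chromosome 17 on the plus strand across 5554 bases.

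The shared exonic sequence sets what a gene count can show here. A median of 3.68% of the exonic bases of a readthrough gene lay in neither parent, and 37 genes had no such base. Seen from the parents, a median of 21.4% of the exonic bases of the upstream parent and 42.6% of those of the downstream parent lay in readthrough exons. The labels and file headers do not state how a read that overlaps exons of several genes was counted. The 3 counts of a locus are therefore not known to come from different reads.

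The poly(A) signal of the upstream parents was ordinary in sequence. AATAAA or ATTAAA was searched in the transcript sequence, in the sense of the RNA, and counted once where both occurred. Such a signal was present in the last 50 bases of 85 of 114 upstream parent transcripts (74.6%). The share was 89 of 112 (79.5%) for downstream parents and 77.4% over 20046 protein-coding genes.

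Most readthrough genes had counts in both libraries. At least 1 count was present for 101 of 117 by Nanopore (86.3%), beside 59.2% of all protein-coding genes, and for 109 by Illumina (93.2%), beside 78.3%. The 101 genes with Nanopore counts all had Illumina counts. A further 8 had Illumina counts only, and 8 had no count in either library. The median was 10 Nanopore counts and 3273 Illumina counts per gene. The 117 genes took up 1.06% of all Nanopore counts and 0.910% of all Illumina counts.

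The 8 genes without any count include pairs known from other tissues, such as INS-IGF2 (insulin and insulin-like growth factor 2), APOC4-APOC2 (plasma apolipoproteins), CCL15-CCL14 (chemokines) and GIMAP1-GIMAP5 (lymphocyte GTPases). Parents of these 4 were also at 0 in both libraries. A count of 0 allows up to 0.0156 CPM by Illumina and 7.44 CPM by Nanopore (3 counts of each total). Among the 8 genes seen by Illumina only, the most abundant was P3R3URF-PIK3R3, whose downstream parent encodes a regulatory subunit of phosphoinositide 3-kinase, with 527 Illumina counts. ZNF816-ZNF321P had 146, CCDC169-SOHLH2 171, STON1-GTF2A1L 84 and TIMM23B-AGAP6 58. The highest of these Illumina levels was 2.75 CPM, where 1 Nanopore count stands for 2.48 CPM and a Nanopore count of 0 allows up to 7.44 CPM. A difference between the libraries was therefore not detectable for these 8 genes.

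**Figure D1:**
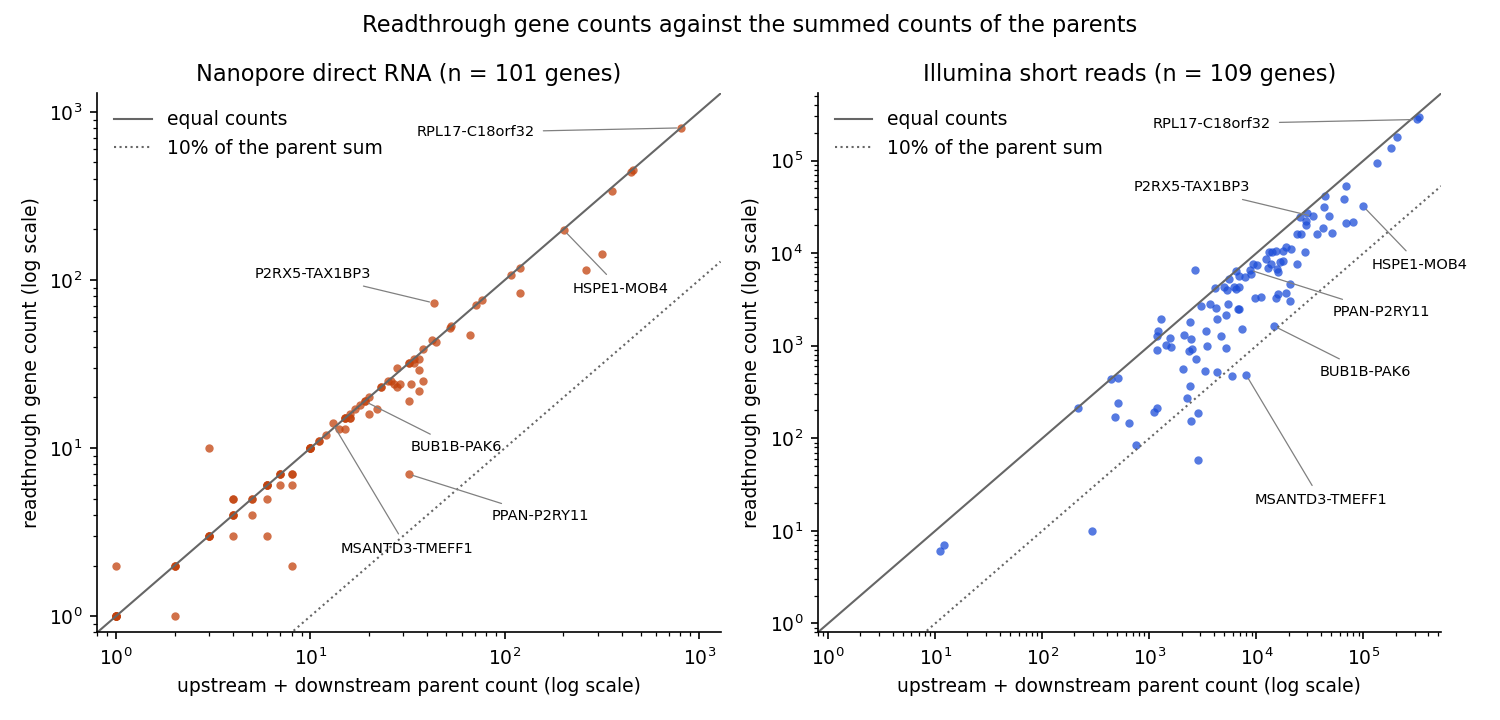
Count of each readthrough gene (y axis, log scale) against the summed count of its upstream and downstream parents (x axis, log scale), for genes with counts on both axes, in the Nanopore library (left, 101 genes) and the Illumina library (right, 109 genes). The solid line marks equal counts and the dotted line 10% of the parent sum. The Nanopore points lie along the solid line, and most Illumina points lie below it.

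The main result was that the median readthrough gene had as many Nanopore counts as its parents had together. This is not a measure of readthrough RNA, since the counts of a locus may hold the same reads. RPL17-C18orf32, NME1-NME2 and HSPE1-MOB4, for example, had no exonic base outside their parents. A read in their exons therefore also overlapped a parent exon. Over the 62 genes whose parents summed to at least 10 Nanopore counts, the readthrough count was a median of 100.0% of the parent sum (quartiles 89.9 to 100.0%). It was equal to the parent sum, to the count, in 28 of 62 genes, and within 10% of it in 45. In the same 62 genes the Illumina readthrough count was a median of 61.0% of the parent sum (36.5 to 74.9%), and 5 genes were within 10%. Over all 110 genes whose parents had at least 10 Illumina counts the median was 53.8%, with 0 genes equal to the sum and 51 genes below 50%.

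The order of the 3 counts differed between the libraries in the same way. By Nanopore, 40 of 62 readthrough genes had more counts than either parent, 13 had exactly as many as the larger parent and 9 had fewer. By Illumina, 16 of 110 were above both parents (6 of the 69 without an exon of an opposite-strand gene in theirs), 85 lay between the parents and 7 were below both. Set against length, as counts per 1000 exonic bases, 47 of the 110 exceeded both parents by Illumina, so the order of the Illumina counts depended on this division. Direct RNA reads are not expected to scale with length, and division by length placed 45 of 62 above both parents by Nanopore.

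The percent of the parent sum was higher by Nanopore than by Illumina in 56 of 62 genes. The odds ratio of readthrough to parent counts between the libraries had a 95% exact conditional interval above 1 for 32 of the 62 (51.6%) and below 1 for 2 (3.23%), PPAN-P2RY11 and BOLA2-SMG1P6. This interval treats the counts of a locus as separate reads. If reads were counted for more than 1 gene, it does not have its nominal coverage, so these counts are a description of the libraries.

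**Figure D2:**
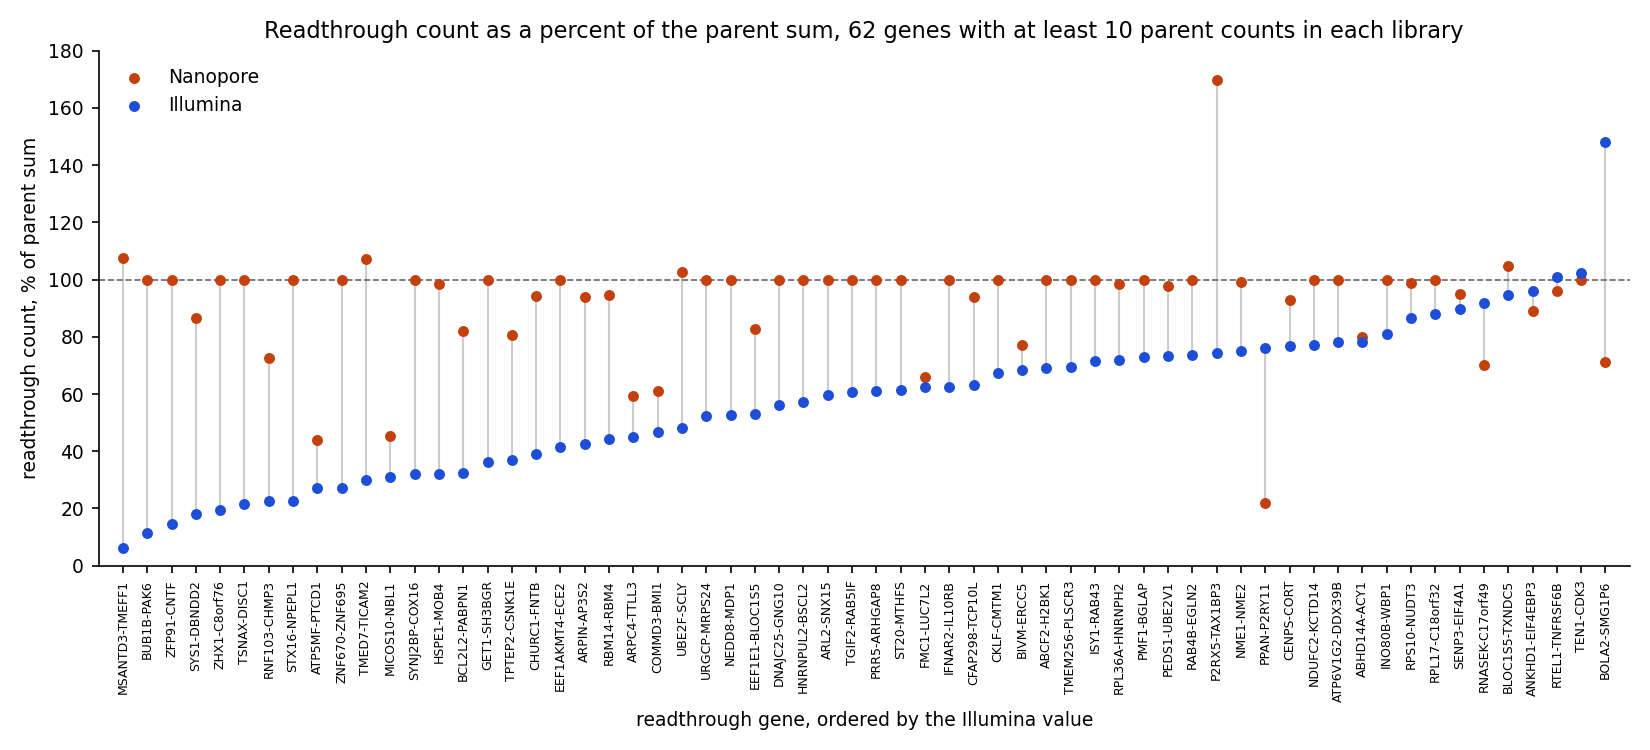
Readthrough count as a percent of the parent sum (y axis) in the Nanopore and Illumina libraries for the 62 readthrough genes with at least 10 parent counts in each, ordered by the Illumina value (x axis). The dashed line marks 100%. The Nanopore value is the higher of the pair in 56 genes, with a median of 100.0% against 61.0% by Illumina.

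The counts were concentrated in few readthrough genes. The 4 with the most Nanopore counts accounted for 47.5% of the Nanopore total of the set. The 10 with the most accounted for 65.3% of that total and for 63.7% of the Illumina total of the set.

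RPL17-C18orf32 (ENSG00000215472, chromosome 18, 49481681 to 49492479, hg38) starts in RPL17, a protein of the large ribosomal subunit. It had 803 Nanopore counts, against 788 for RPL17 and 16 for C18orf32. By Illumina it had 277833, against 310953 and 4943. The readthrough gene was therefore at 99.9% of its parent sum by Nanopore and 88.0% by Illumina, with an odds ratio of 1.14 (95% interval 1.03 to 1.25).

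RPS10-NUDT3 (ENSG00000270800, chromosome 6, 34284887 to 34426071) joins RPS10, of the small ribosomal subunit, to NUDT3, a hydrolase of diphosphoinositol polyphosphates. It had 450 Nanopore counts, against 440 and 16 for the parents, and 178999 Illumina counts, against 189735 and 17397. Its reading frame keeps the frame of both parents. RPL36A-HNRNPH2 (ENSG00000257529, chromosome X, 101391011 to 101412297) joins a large-subunit protein gene to a splicing regulator gene. It had 118 Nanopore counts, against 101 and 19, and 95298 Illumina counts, against 113450 and 19191. In these 3 ribosomal loci the ribosomal parent had most of the parental counts in both libraries, and the readthrough count exceeded that parent by Nanopore and fell short of it by Illumina. Ribosomal protein genes have many near-identical processed pseudogenes, so how their reads were placed is uncertain.

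NME1-NME2 (ENSG00000011052, chromosome 17, 51153590 to 51171744) joins the genes of a pair of nucleoside diphosphate kinases. It had 440 Nanopore counts, against 98 for NME1 and 346 for NME2. Its Illumina count of 136692 was above both NME1 (72246) and NME2 (109796). The readthrough gene was at 99.1% and 75.1% of the parent sum in the 2 libraries, with an odds ratio of 1.32 (1.15 to 1.51).

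SENP3-EIF4A1 (ENSG00000277957, chromosome 17, 7563287 to 7578715) joins a SUMO protease gene to the gene of the RNA helicase of translation initiation. It had 337 Nanopore counts, against 12 for SENP3 and 343 for EIF4A1, and 297327 Illumina counts, against 14339 and 317098. Here the readthrough count was close to the downstream parent in both libraries, and the odds ratio of 1.06 had an interval that held 1 (0.91 to 1.23). A further gene of the same strand, ENSG00000264772, shares 1466 of its exonic bases and had 347 and 320435 counts.

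HSPE1-MOB4 (ENSG00000270757, chromosome 2, 197500413 to 197550726) starts in the gene of the mitochondrial co-chaperonin and ends in that of a subunit of striatin phosphatase complexes. It had 198 Nanopore counts, against 185 and 16 for the parents. By Illumina it had 31914, against 91697 and 8157, which is 31.96% of the parent sum. The odds ratio of 3.08 (2.52 to 3.77) was the largest among the 10 genes with the most Nanopore counts. NDUFC2-KCTD14 (ENSG00000259112, chromosome 11, 78016971 to 78079865), which starts in a subunit gene of respiratory complex I, had 107 Nanopore counts, against 106 and 1, and 22237 Illumina counts, against 26309 and 2540.

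In 3 of these 10 genes the Nanopore count was below 90% of the parent sum, at 45.3%, 43.9% and 70.0%, and in each of them the parents overlap. MICOS10-NBL1 (ENSG00000270136, chromosome 1, 19597067 to 19656927), which joins a mitochondrial cristae gene to that of a BMP antagonist, had 143 counts, against 161 and 155. The gap between its parents is -32843 bases, and they share 131 exonic bases. ATP5MF-PTCD1 (ENSG00000248919, chromosome 7, 99419749 to 99466197) joins an ATP synthase subunit gene to a mitochondrial RNA-binding protein gene, and had 115 counts, against 114 and 148. The gap between its parents is -17689 bases, and they share 53 exonic bases. RNASEK-C17orf49 (ENSG00000161939, chromosome 17, 7012635 to 7017520), which starts in the ribonuclease kappa gene, had 84 counts, against 61 and 59, and its parents share 38 exonic bases. Its Nanopore percent was the lower of the pair, 70.0% against 91.9%, with an odds ratio of 0.76 (0.57 to 1.02). Where parents overlap each other, a read can lie in exons of both. Overlap did not always go with a low percent among the 62 genes with at least 10 parent counts. The parents share 240 exonic bases in BUB1B-PAK6 and 85 in SYNJ2BP-COX16, both at 100% by Nanopore. They share 68 in FMC1-LUC7L2, at 65.8%, and 48 in PPAN-P2RY11, at 21.9%. Low values also occurred where the parents share no exonic base, at 59.4% in ARPC4-TTLL3 and 61.1% in COMMD3-BMI1. The part of the overlap in these values was not tested.

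Genes on the opposite strand lay beside several of the Nanopore values that stood apart. P2RX5-TAX1BP3 (chromosome 17, 3663063 to 3696194), an ATP-gated channel gene joined to a PDZ protein gene, had the highest Nanopore percent of the 62 genes, 170%, with 73 counts against 3 and 40. EMC6, on the other strand, shares 571 of its exonic bases and had 31 Nanopore counts. By Illumina the same readthrough gene had 24974 counts against 1201 and 32338, with 5241 for EMC6. In ATP5MF-PTCD1, the parent PTCD1 had 148 Nanopore counts beside 34 for its opposite-strand neighbour BUD31, but 6930 Illumina counts beside 18711. In PPAN-P2RY11, with the lowest Nanopore percent of the 62 at 21.9% (7 counts against 6 and 26), the receptor gene P2RY11 had 26 Nanopore and 1222 Illumina counts, and the opposite-strand EIF3G had 40 and 28707. In RNASEK-C17orf49 the parent C17orf49 had 59 and 7380 counts and the opposite-strand MIR497HG 23 and 5254. Another opposite-strand gene there, ENSG00000267047, shares 132 exonic bases with the readthrough gene. It had 84 Nanopore and 159 Illumina counts, beside 84 and 27096 for the readthrough gene. These 4 loci were chosen after their values were seen, and the part of opposite-strand reads in them was not tested. Exons of an opposite-strand gene lay within the exons of 44 of the 117 readthrough genes. Over the 39 of the 62 genes without such an exon, the median percent of the parent sum was 100.0% by Nanopore and 56.0% by Illumina, and over the other 23 it was 100.0% and 63.1%.

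The Illumina percent rose with the share of parental sequence that the readthrough gene contains, and the Nanopore percent did not. Across the 62 genes, Spearman's rho between the shared exonic percent of the parent with more Illumina counts and the readthrough percent of the parent sum was 0.642 by Illumina and -0.0081 by Nanopore. These are correlations across genes of the same 2 libraries, looked at after the counts were seen, and 2 pairs among the 117 genes share a parent. In the 21 genes with the least sharing (2.61 to 19.5% of the bases of the larger parent) the median readthrough percent was 36.3% by Illumina and 100.0% by Nanopore. In the 20 genes in the middle (20.0 to 32.6%) it was 62.8% and 99.9%. In the 21 genes with the most sharing (33.0 to 100.0%) it was 74.5% and 100.0%. Even coverage of every exonic base of both parents would have given a median of 27.1% by Illumina, and 54 of 62 genes were above their own value from this calculation.

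**Figure D3:**
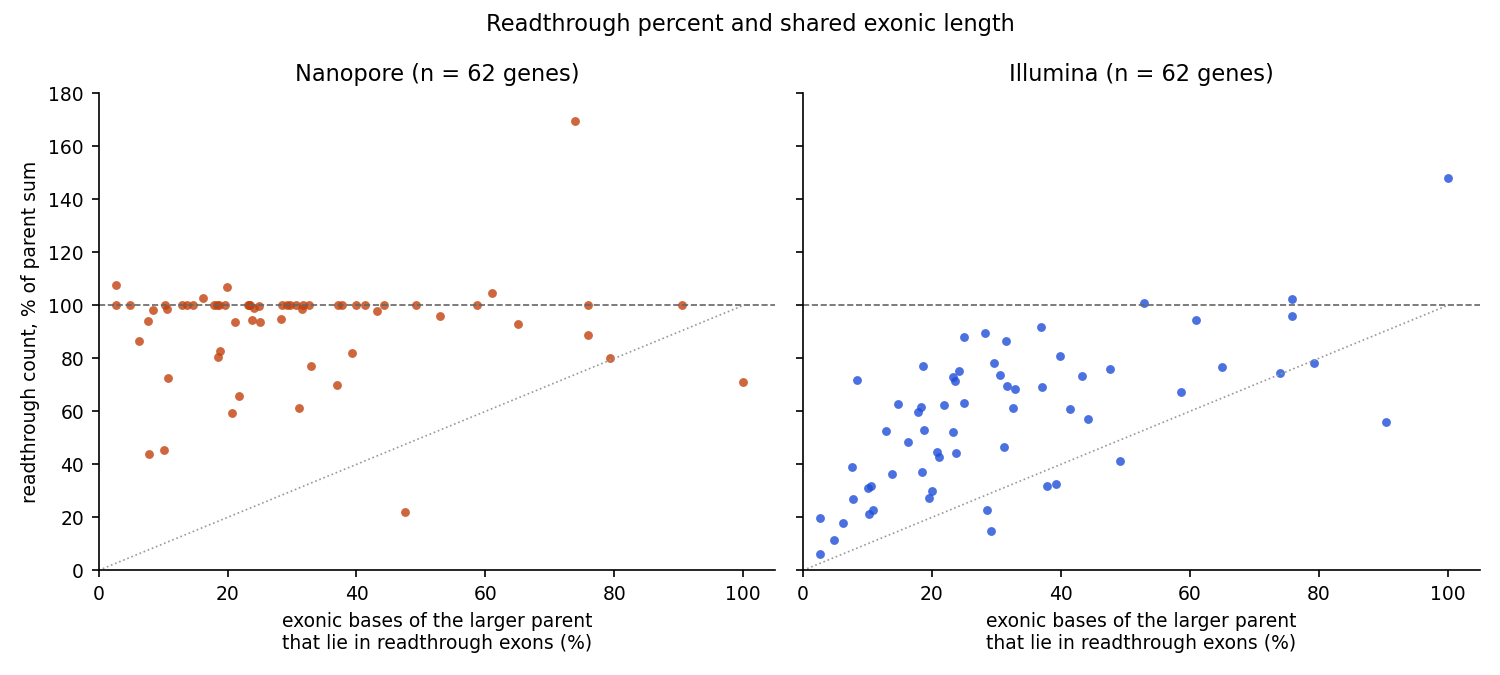
Readthrough count as a percent of the parent sum (y axis) against the percent of exonic bases of the larger parent that lie in readthrough exons (x axis), for 62 genes in the Nanopore (left) and Illumina (right) library. The dashed line marks 100% and the dotted line equal percentages. Illumina values rise along the x axis (rho 0.642), while the Nanopore medians of the groups with least, middle and most sharing are 100.0%, 99.9% and 100.0% (rho -0.0081).

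The 5 genes with the lowest Illumina percent among the 62 were at 86.7% (SYS1-DBNDD2) to 108% (MSANTD3-TMEFF1) by Nanopore. In 4 of the 5 the larger parent was in the group with the least sharing, and the exception was ZFP91-CNTF, with 29.2% shared. MSANTD3-TMEFF1 (ENSG00000251349, chromosome 9, 100442271 to 100577636), which ends in the gene of a transmembrane protein with EGF-like and follistatin-like domains, contains 2.61% of the exonic bases of MSANTD3. It had 14 Nanopore counts against 13 and 0, and 482 Illumina counts against 7585 and 450, that is 108% and 5.999% of the parent sum. BUB1B-PAK6 (chromosome 15, 40218500 to 40264890) starts in the gene of the spindle checkpoint kinase BUBR1 and contains 4.86% of its exonic bases. It had 19 Nanopore counts against 18 and 1, and 1637 Illumina counts against 13609 and 902.

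ZFP91-CNTF, whose downstream parent encodes ciliary neurotrophic factor, had 23 Nanopore counts against 23 and 0, and 3039 Illumina counts against 20406 and 322. SYS1-DBNDD2, which starts in a Golgi trafficking gene, had 13 against 12 and 3 by Nanopore and 937 against 4579 and 660 by Illumina. ZHX1-C8orf76 had 17 against 11 and 6 by Nanopore and 3721 against 13240 and 5752 by Illumina. Since the 5 genes were picked by their Illumina percent, the gap between the libraries is given here as a description.

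At the other end, 6 of the 110 readthrough genes had more Illumina counts than both parents together, and each has over 1000 exonic bases outside both parents. Exons of further genes may hold some of these bases. Such bases were not particular to them, as 15 of the 110 genes have over 1000, and the other 9 lay at 6.60 to 96.1% of the parent sum. PPT2-EGFL8, which joins a palmitoyl thioesterase gene to an EGF-domain gene, had 6534 against 1870 and 776, with 2510 bases outside its parents. The opposite-strand AGPAT1, with 17616 Illumina counts, shares 1087 of the exonic bases of PPT2-EGFL8. IQCJ-SCHIP1 had 1455 against 0 and 1200, with 2665 bases outside its parents, and JMJD7-PLA2G4B had 1281 against 884 and 302, with 2924. RTEL1-TNFRSF6B, a telomere helicase gene joined to that of a decoy receptor, had 6456 against 3491 and 2914, with 3431 bases outside its parents. TEN1-CDK3, which starts in a gene of the telomere-capping CST complex, had 4230 against 3358 and 770, with 1229 such bases.

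BOLA2-SMG1P6 (ENSG00000261740, chromosome 16, 29443230 to 29454651) was the sixth. It joins an iron-sulfur cluster factor gene to a pseudogene of the kinase SMG1. It had 1925 Illumina counts against 1016 and 283, and 47 Nanopore counts against 48 and 18. BOLA2 and the SMG1 pseudogenes lie in duplicated sequence of chromosome 16, so the assignment of their reads to a single copy is uncertain. Among the 62 genes with enough counts in both libraries, the next below 100% were ANKHD1-EIF4EBP3, with 24376 Illumina counts against 22625 and 2731, and BLOC1S5-TXNDC5, which ends in a protein disulfide isomerase gene, with 41533 against 1938 and 42020.

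Relative to library size, readthrough genes were on balance higher by Nanopore, whereas their parents were lower. The measure was the log2 ratio of the platforms after adding 1 CPM to each, where the mean of both levels reached 5 CPM. The median was 0.53 over the 94 readthrough genes that passed this filter (quartiles -0.49 to 1.32), -0.43 over 146 parents, -0.58 over 10498 protein-coding genes and -0.42 over all 12414 genes. The ratio was above 0 in 65 of the 94 readthrough genes and 51 of the 146 parents. A gene with an Illumina level below 5 CPM could pass this filter only with a higher Nanopore level, so its ratio was above 0 by construction. Without the filter the median over all 117 readthrough genes was 0.29, with the 8 that had no count included. Within a locus, the readthrough gene had a higher ratio than the parent with more Illumina counts in 89 of 94 cases, by a median of 0.88. Since a readthrough gene and its parents may share reads, the 3 ratios of a locus are not independent. The parent was also picked by its Illumina count, the denominator of the ratio, and the filter was set on the readthrough gene only. Both choices can widen the gap within a locus, so it is given as a description.

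A ratio of at least 4-fold toward Nanopore was reached by 12 of the 94 readthrough genes, beside 12.9% of all genes and 4.74% of protein-coding genes. Toward Illumina it was reached by 2 of the 94, beside 8.14% of all genes and 8.56% of protein-coding genes. The share toward Nanopore was near that of all genes. In each of these 14 genes the 95% exact conditional interval of the ratio excluded 1, a rule that called 12.9% of all genes toward Nanopore and 7.93% toward Illumina. Toward Nanopore the fold alone and the fold with the interval each called 1597 of 12414 genes. The interval rests on the counts that set the fold, so it is not separate support. Where the Illumina level was below 5 CPM, a gene passed the filter only through its Nanopore counts. The 12 genes toward Nanopore had 4 to 47 Nanopore counts and 155 to 3355 Illumina counts. In 3 of the 12 the larger parent had a ratio below 0, and in 10 it was not 4-fold higher.

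**Figure D4:**
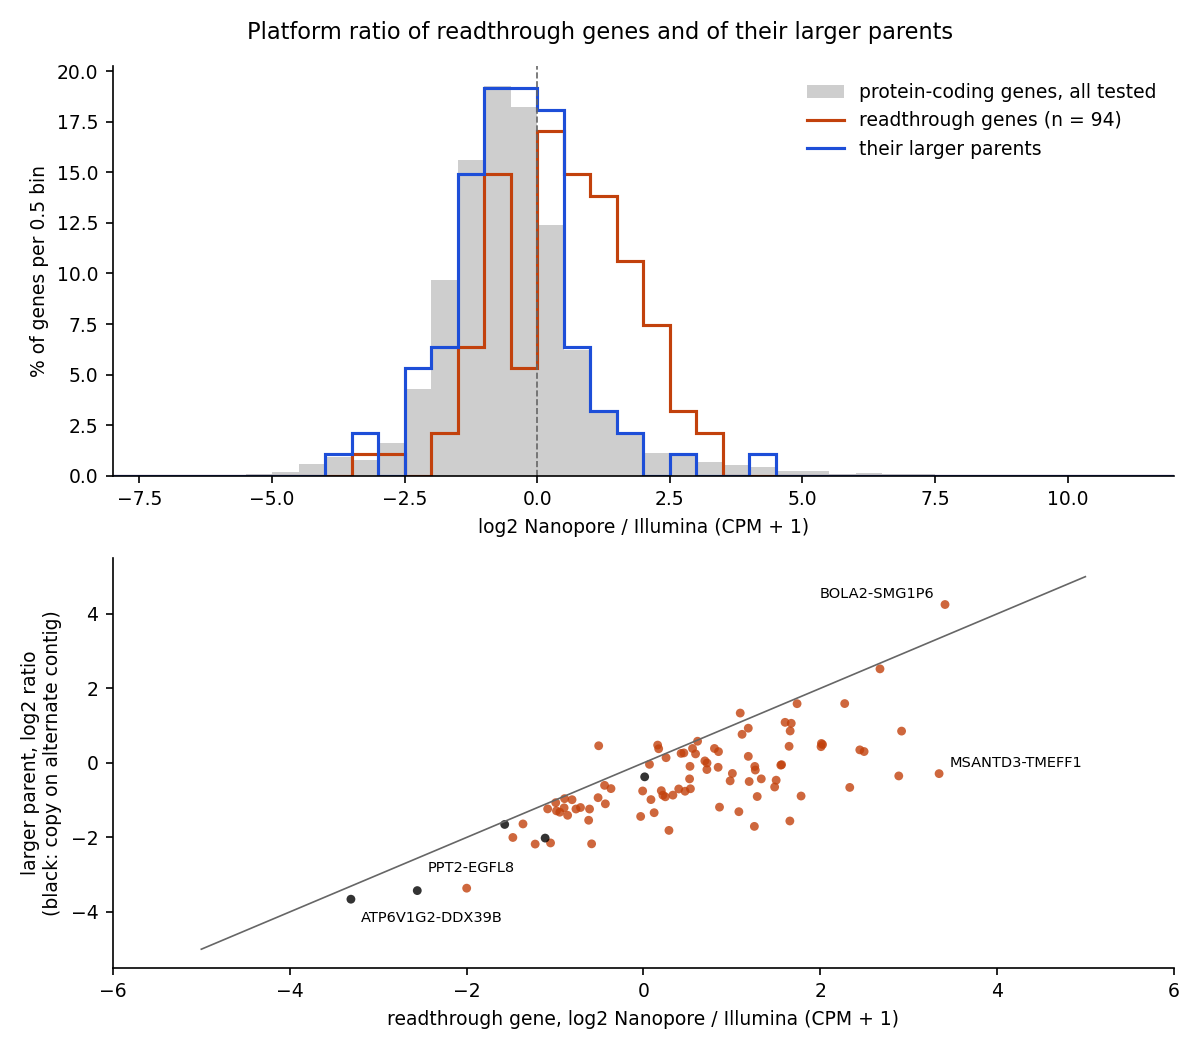
Top, distribution of the log2 Nanopore/Illumina ratio (x axis, CPM plus 1) as a percent of genes per bin of 0.5 (y axis), for protein-coding genes, the 94 readthrough genes and the larger parent of each. Bottom, the ratio of the larger parent (y axis) against that of the readthrough gene (x axis), with the line of equal values and genes that have a copy on an alternate contig in black. The readthrough gene lies to the right of the line in 89 of 94 cases.

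The 5 highest ratios belonged to BOLA2-SMG1P6 (3.41), MSANTD3-TMEFF1 (3.35), TM4SF19-DYNLT2B (2.92), RBAK-RBAKDN (2.89) and KLRC4-KLRK1 (2.68). With Illumina levels of 0.81, 1.10 and 2.51 CPM, RBAK-RBAKDN, KLRC4-KLRK1 and MSANTD3-TMEFF1 passed the filter only through their Nanopore counts. The same held for TM4SF19-DYNLT2B, with 273 Illumina counts. The place of these genes in this ranking is therefore set in part by the filter. For MSANTD3-TMEFF1 the Nanopore level was 34.7 CPM (20.7 to 58.3, 95% Wilson) beside an Illumina level of 2.51 CPM, whereas the ratio of MSANTD3 was -0.29. TM4SF19-DYNLT2B, which ends in a dynein light chain gene, had 7 Nanopore counts against 0 and 8 for its parents, and 273 Illumina counts against 230 and 2018. RBAK-RBAKDN joins a zinc finger repressor gene to a lncRNA gene, and had 5 Nanopore counts against 4 and 0, and 155 Illumina counts against 2475 and 0. KLRC4-KLRK1, of natural killer receptor genes, had 5 Nanopore counts against 0 and 4, and 210 Illumina counts against 45 and 172. BOLA2-SMG1P6 was the exception among the 5, as its parent BOLA2 had the higher ratio, 4.25.

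The 5 lowest ratios belonged to ATP6V1G2-DDX39B (-3.31), PPT2-EGFL8 (-2.56), SPECC1L-ADORA2A (-1.998), MSH5-SAPCD1 (-1.57) and ABCF2-H2BK1 (-1.48). ATP6V1G2-DDX39B (ENSG00000254870, chromosome 6, 31530219 to 31546608), which ends in the gene of an RNA helicase of mRNA export, had 11 Nanopore counts, all matched by 11 for DDX39B. Its Illumina count was 53499, against 134 and 68244. These are levels of 27.3 CPM (15.2 to 48.9) in the first library and 279 CPM in the second. PPT2-EGFL8 had 2 Nanopore counts and 34.1 CPM by Illumina, a log2 CPM ratio between -5.83 and -0.93 by the exact interval. SPECC1L-ADORA2A, whose downstream parent is an adenosine receptor gene, had 1 Nanopore count and 2474 Illumina counts, and its interval reached 0.10.

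ATP6V1G2-DDX39B, PPT2-EGFL8 and MSH5-SAPCD1 lie in the major histocompatibility complex on chromosome 6, for which hg38 carries alternate contigs. A copy of the longest transcript on an alternate contig was found for 8 of the 117 readthrough genes. The median ratio was -1.57 over the 5 of these that passed the filter, and 0.59 over the 89 genes without such a copy. With 5 genes, the first median is the value of MSH5-SAPCD1 alone. That gene had 1 Nanopore count, and its exact interval ran from -7.21 to 0.57. Both genes that were 4-fold higher by Illumina had copies on 6 contigs. Whether the alternate contigs were part of the alignment reference is not given in the sources used here, and their part in these ratios was not tested.

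The genes were also divided by coding class. Over the genes with at least 10 parent counts, the Nanopore median was 98.1% of the parent sum for 28 genes that keep both frames and 100.0% for 25 that keep the upstream frame only. The Illumina medians were 49.6% and 71.8%. The 4 genes that keep only the downstream frame had medians of 100.0% by Nanopore and 32.1% by Illumina, and the 5 without an annotated start had 94.9% and 89.7%. By annotated fate, 20 genes with a decay transcript as canonical had medians of 100.0% and 58.5%, and 42 with a protein-coding one had 98.6% and 61.4%. No test was made of these differences.

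The machinery that ends transcription was present in both libraries. All 32 listed genes of cleavage, polyadenylation and termination had counts in each, and their median ratio was -1.07. None was 4-fold higher by Nanopore and 6 were 4-fold higher by Illumina, CSTF2, CSTF2T and PABPN1 among them, beside 8.14% of all genes. PABPN1, the nuclear poly(A)-binding protein gene and itself the downstream parent of BCL2L2-PABPN1, had 18 Nanopore and 39230 Illumina counts, and the readthrough gene had 23 and 16502. XRN2, the exonuclease that follows the polymerase after cleavage, had 29 and 26054 counts.

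Readthrough genes of other types were few. By the same symbol rule, 13 genes of non-coding or pseudogene type were in the tables, and 7 had Nanopore counts. The 4 that passed the filter had a median ratio of 2.28, and with so few genes no comparison with the protein-coding set was made.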

How the data were processed

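The authors deposited whole-number counts per Ensembl gene, without normalization, in 1 table per library. Per the submitters' processing notes, minimap2 2.11-r797, HISAT2 2.1.0, featureCounts and hg38 were used. Their options, the annotation release, the strand setting, whether Illumina values count reads or fragments, and the handling of reads shared between genes or aligned at more than one locus are not given in the sources used here. The Nanopore column name has a suffix that no label explains. Of 58735 identifiers, 58207 were matched to GENCODE release 44 on hg38, which gave symbols, types, exons and coordinates and may differ from the annotation the authors used.

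Totals were 403235 and 191741714 counts, so 1 count stood for 2.48 CPM by Nanopore and 0.0052 CPM by Illumina. CPM used the column totals. Exonic lengths are the union of all annotated exons. With 1 library per platform, no replicate model was fitted. Intervals are 95% Wilson for CPM, exact conditional (Clopper-Pearson) for the platform ratio and exact conditional (Fisher) for odds ratios. Reads of amplified libraries are not independent molecules, so intervals and floors (3 counts) cover counting error only. The interval code was tested on simulated data. Copies on alternate contigs were sought with minimap2 2.31 (at least 80% of the longest transcript, at most 5% divergence).

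Python 3.11.15, scipy 1.17.1, edgeR 4.0.16 (TMM) and DESeq2 1.42.0 (size factors only) were used. Named genes were the 10 with the most Nanopore counts, the 5 with the most Illumina counts, the 5 highest and 5 lowest platform ratios, up to 5 with no Nanopore count, and the 5 highest and 5 lowest Illumina percentages of the parent sum. The percentage rules used the 62 genes with at least 10 parent counts in both libraries. Other genes named, the 4 opposite-strand loci, the minimum of 15 in-frame bases, the relations to shared sequence and 3 of the alternatives were chosen after values were seen. The members and gene lists were chosen with earlier results of these data known. Alternatives tried were other minimum counts, scalings, pseudocounts, division by length and subsets of genes.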

Additional observations from a re-analysis of the deposited data

How the results depend on the processing

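No paired analysis was possible because each platform has 1 library. The median percent of the parent sum lay between 98.7% and 100.0% by Nanopore in the subsets tried, and division by exonic length gave 149%. By Illumina that division gave 68.4% and 47 genes above both parents, and the 14 genes whose loci overlap no further gene body had a median of 64.8%.

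Raising the minimum to 10 counts left 62 genes detected by Nanopore. With at least 50 parent counts, 11 of 15 genes were above both parents by Nanopore, and 11 and 1 of 15 had a higher readthrough share by Nanopore and by Illumina. Requiring a 2-fold odds ratio left 21 genes with a higher share by Nanopore.

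The subset of 15 genes whose loci overlap no further gene body gave 13 detected by Nanopore and 14 by Illumina, 6 of 9 above both parents by Nanopore and 2 of 14 by Illumina, 3 and 0 of 9 with a higher share by Nanopore and Illumina, and 2 and 0 of 12 past 4-fold toward Nanopore and Illumina. The 73 genes without an opposite-strand exon, a subset chosen after seeing the data, gave 62 and 68 detected, 6 of 69 above both parents by Illumina, 1 of 39 with a higher share by Illumina, and 7 and 0 of 58 past 4-fold. Both sets are smaller by construction, and where the share of genes also changed the cause was not tested.

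At a mean of at least 20 CPM, 3 and 1 of 61 genes passed 4-fold toward Nanopore and Illumina, and a pseudocount of 5 CPM left 2 and 1 of 94, which shrinks rare genes. Leaving out genes with an alternate-contig copy, also added after seeing the data, left 0 of 89 toward Illumina. TMM and median-ratio scaling shifted all ratios by 0.088 and 0.13. The Nanopore depth limits the 18 genes with 1 to 3 counts and the 16 without any.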
